A study of Mus musculus with 8 samples.

Results

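Caspases are proteases with a cysteine in the active site that cut their targets after aspartate, and cells make them as inactive precursors. The 7 caspase genes described here are Casp1, Casp2, Casp4, Casp6, Casp8, Casp9 and Casp12, and every probe set whose only gene symbol in the platform annotation is one of these was taken. They have 11 probe sets among 45037 on the array without controls, and they are 7 of 18193 genes with such a symbol. The family was selected on the measured levels of Casp1, which was seen in the immunoprecipitate and not in the unbound fraction. The levels of the 7 genes in both fractions are therefore given as a description, with no p-value. The fit over all probe sets includes them, and its calls for them are counted beside the calls over all genes or probe sets.

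The study profiled hypocretin neurons, the arousal-promoting neurons of the lateral hypothalamus, by translating ribosome affinity purification, in which a transgene tags the ribosomes of a cell type so that RNA bound to them can be pulled down. All mice came from the bacterial artificial chromosome line Hcrt JD218 on a mixed Fvb and c57/bl6j background. Adult males and females, from 6 to 12 weeks old, gave pools of 5 mice, from which the diencephalon (thalamus and hypothalamus) was dissected. The 4 immunoprecipitates hold the ribosome-bound RNA and the 4 unbound fractions of the same preparations stand for the whole tissue. Each was amplified from 20 ng of RNA and hybridised to 1 Affymetrix array, and the number of arrays limits the precision. Cell type and ribosome binding differ together between the fractions and cannot be told apart, nor can fewer cells of a type be told from less RNA per cell. The transgene is named for Hcrt, and no precipitate from mice without it was analysed here. Between 33.6% and 34.8% of probe sets reached a linear value of 50 on the immunoprecipitate arrays, against 40.5% to 40.9% on the unbound arrays.

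Caspase-1 is the inflammatory member of the family. In an inflammasome, a sensor protein and the adaptor ASC bring its precursors together, and the active enzyme cuts the precursors of interleukin-1β and interleukin-18 and the pore protein gasdermin D. Mouse Casp4 encodes the protein also called caspase-11, which responds to bacterial lipopolysaccharide inside the cell, and Casp12 encodes a rodent caspase linked to the endoplasmic reticulum. Caspase-8 starts apoptosis at death receptors, caspase-9 starts it at the Apaf1 apoptosome, and caspase-2 is an initiator activated in the PIDDosome. Caspase-6 is an executioner that cuts nuclear lamins and, in neurons, proteins of the axon. In the brain, Casp1 is best known from microglia and other immune cells.

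The 3 inflammatory members lie side by side on chromosome 9 in GRCm38.p6. Casp1 spans 5298517 to 5307281, Casp4 spans 5308849 to 5336791 and Casp12 spans 5345442 to 5373034, with gaps of 1567 bp and 8650 bp between them. The other 4 lie apart, Casp8 on chromosome 1, Casp6 on chromosome 3, Casp9 on chromosome 4 and Casp2 on chromosome 6. The promoter windows of the chromosome 9 group are shown because these neighbours share a locus and yet only Casp1 among them gave a signal on these arrays. Each runs from 250 bases before to 50 after a transcript start in the RefSeq table, on the plus strand of GRCm38.p6. That start is the first base of the gene for Casp1, the Casp4 entry shown, Casp6 and Casp9, and lies inside the gene by 34 bases for Casp12, 83 for Casp2 and 7269 for Casp8. The windows are chr9:5298267-5298566 for Casp1, chr9:5308599-5308898 for the more upstream of the 2 Casp4 entries, and chr9:5345226-5345525 for Casp12. Capitals mark matches on either strand to a loose NF-kB pattern, GGG followed by 5 bases of any kind and CC, and matches that overlap run together.
Casp1: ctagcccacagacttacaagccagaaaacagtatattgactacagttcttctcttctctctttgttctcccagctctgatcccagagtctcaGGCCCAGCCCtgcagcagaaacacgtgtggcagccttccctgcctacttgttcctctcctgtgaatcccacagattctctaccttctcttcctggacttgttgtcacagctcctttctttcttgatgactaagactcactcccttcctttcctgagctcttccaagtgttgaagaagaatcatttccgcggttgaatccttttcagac
Casp4: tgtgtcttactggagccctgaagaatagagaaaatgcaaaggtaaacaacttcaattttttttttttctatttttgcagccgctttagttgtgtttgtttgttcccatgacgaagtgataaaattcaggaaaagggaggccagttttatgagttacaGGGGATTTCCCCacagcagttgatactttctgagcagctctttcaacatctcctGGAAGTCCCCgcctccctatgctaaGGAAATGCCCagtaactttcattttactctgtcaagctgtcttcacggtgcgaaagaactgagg
Casp12: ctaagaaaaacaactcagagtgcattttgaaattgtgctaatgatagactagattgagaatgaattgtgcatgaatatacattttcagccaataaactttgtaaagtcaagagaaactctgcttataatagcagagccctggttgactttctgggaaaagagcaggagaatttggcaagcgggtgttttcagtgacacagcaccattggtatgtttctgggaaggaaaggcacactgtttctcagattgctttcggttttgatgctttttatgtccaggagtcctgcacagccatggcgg

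The NF-kB pattern is present 1 time in the Casp1 window, 6 times in the Casp4 window when both strands and overlaps are counted, and nowhere in the Casp12 window. Of all 32851 promoter windows, 50.8% hold it. The other patterns searched on both strands were TATAAA, held by 13.6% of all windows, the interferon response pattern of GAAA, 2 bases of any kind and GAAA (3.44%), the AP-1 pattern TGANTCA (7.81%) and the LIM homeobox core TAATTA (5.29%). None of these 4 was found in the windows of the 7 genes. The windows differ in base composition. Those of Casp2, Casp9 and Casp6 hold 26, 28 and 16 CG dinucleotides at 63.7%, 66.0% and 62.0% G and C, where the median window has 7 at 52.7%. Those of Casp1, Casp4, Casp12 and Casp8 hold 3, 5, 3 and 5 at 48.0%, 42.0%, 41.0% and 42.0%.

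Casp1, measured by probe set 1449265_at, was the member with a signal in the immunoprecipitate and none in the unbound fraction. Its log2 level was 8.99, 8.98, 9.03 and 9.80 on the 4 immunoprecipitate arrays, against 2.21, 2.15, 2.15 and 2.15 on the 4 unbound arrays. On the linear scale, before the shift, these are 512, 508, 528 and 895 in the immunoprecipitate, against 4.60, 4.42, 4.42 and 4.42 in the unbound fraction. All 4 immunoprecipitate arrays lay above the linear value of 50, which is 5.64 on the log2 scale, and all 4 unbound arrays lay far under it. The unbound value of Casp1 was the lowest value found on the array on 3 of 4 arrays. The mean was 9.20 ± 0.40 on immunoprecipitate arrays and 2.17 ± 0.03 on unbound arrays (SD, n = 4 each). Taken against 50, because the unbound fraction gave no measured level, Casp1 was at least 11.7-fold higher in the immunoprecipitate. In all, 73 of 18193 genes, or 0.401%, were at or above 50 on all 4 immunoprecipitate arrays and under 50 on all 4 unbound arrays, while 668 showed the opposite pattern.

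**Figure D1:**
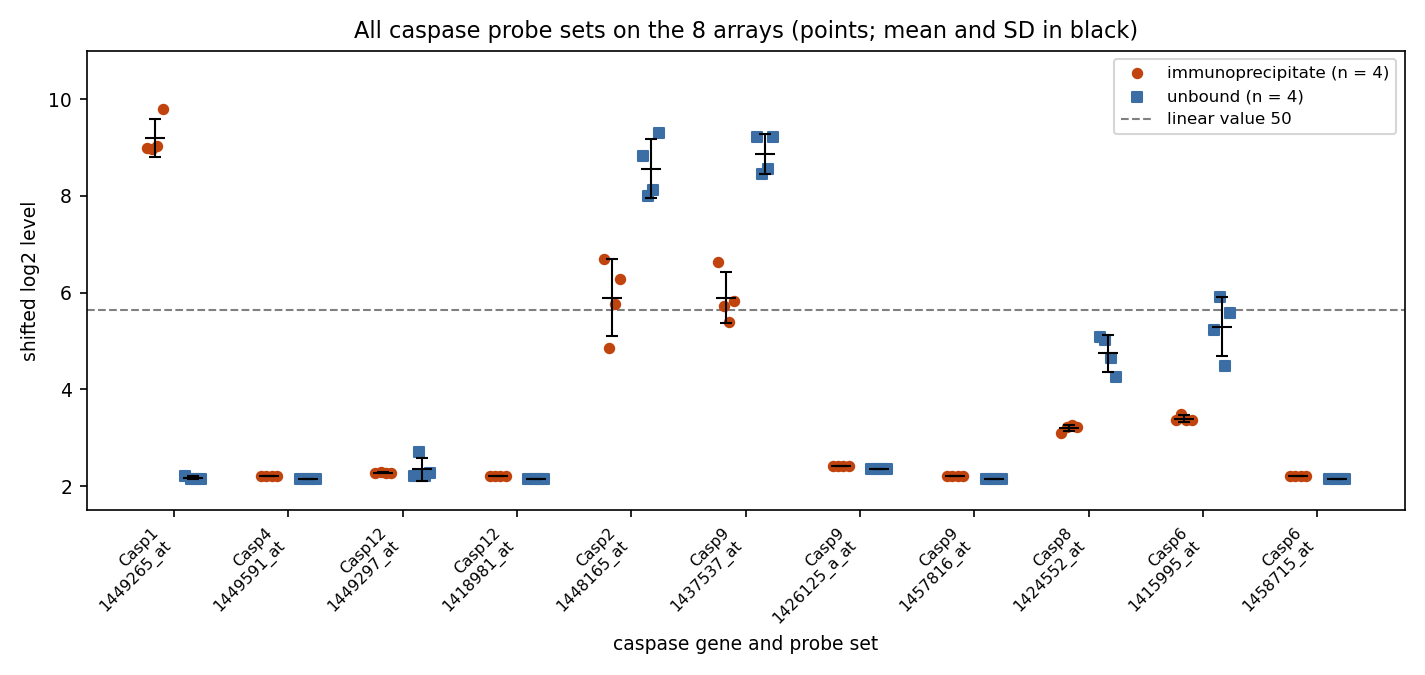
Shifted log2 level of all 11 caspase probe sets on the 4 immunoprecipitate arrays (circles) and the 4 unbound arrays (squares), with mean and SD in black and the linear value 50 as a dashed line. Casp1 lies between 8.98 and 9.80 in the immunoprecipitate and at or below 2.21 in the unbound fraction, while Casp2 and 1 of 3 Casp9 probe sets are lower in the immunoprecipitate.

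The immunoprecipitate array with the highest Casp1 level also had the highest mean of the hypocretin neuron markers and the lowest sums of the glial markers. On immunoprecipitate replicates 1 to 4 the mean log2 level of 8 hypocretin neuron markers was 12.45, 12.90, 12.98 and 13.12. The summed linear level of 13 microglia and macrophage markers on the same arrays was 2590, 1862, 1589 and 805. That of 8 astrocyte markers was 8246, 4338, 4192 and 1701, and that of 7 oligodendrocyte markers was 25965, 24977, 23624 and 12213. Replicate 4 thus stood highest for Casp1 and for the hypocretin mean, and lowest for the 3 glial sums. Gene by gene, replicate 4 was the highest for 5 of 8 hypocretin markers, but not for Lhx9, Pcsk1 and Vgf. It was the lowest for 8 of 13 microglial, 5 of 8 astrocyte and 7 of 7 oligodendrocyte markers. This match rests on 1 array, since Casp1 was nearly level over replicates 1 to 3, where the list values were not.

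Microglial markers were lower in the immunoprecipitate than in the unbound fraction. Their summed level ran from 805 to 2590 in the immunoprecipitate, against 6861 to 7989 in the unbound fraction, and 8 of 13 were under 50 on all 4 immunoprecipitate arrays. Those 8 were Aif1, C1qa, C1qc, Cd68, Cx3cr1, Itgam, P2ry12 and Trem2. Of them 3 were under 50 on the unbound arrays too, so their difference between the fractions was not tested. Under 50 on all 8 arrays were 38.4% of all genes with a symbol. All 8 tested microglial markers fell by limma, beside 44.2% of all tested genes, where median centring gave 7 lower and quantile normalization 5. C1qa, of the complement cascade, was at least 5.25-fold lower. C1qa, C1qc and Cx3cr1 had enough signal for the test through the unbound arrays alone, which favours a lower call. No p-value is therefore given for them. All 10 blood leukocyte markers on the array were under 50 on all 8 arrays, beside the same 38.4% of all genes. Among them was Ptprc, which encodes the leukocyte antigen CD45. The 8 endothelial and mural markers summed to 113 to 399 in the immunoprecipitate, against 786 to 1082 in the unbound fraction. Hcrt, the gene the line is named for, stood at 15.36 ± 0.17 on immunoprecipitate arrays and 10.33 ± 0.55 on unbound arrays (SD, n = 4 each). By limma 7 of 8 hypocretin markers rose, beside 4.74% of all tested genes, with 5 of 8 on the poly-A controls. The marker lists were chosen with earlier results of these data known, so nothing is read from this count.

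**Figure D2:**
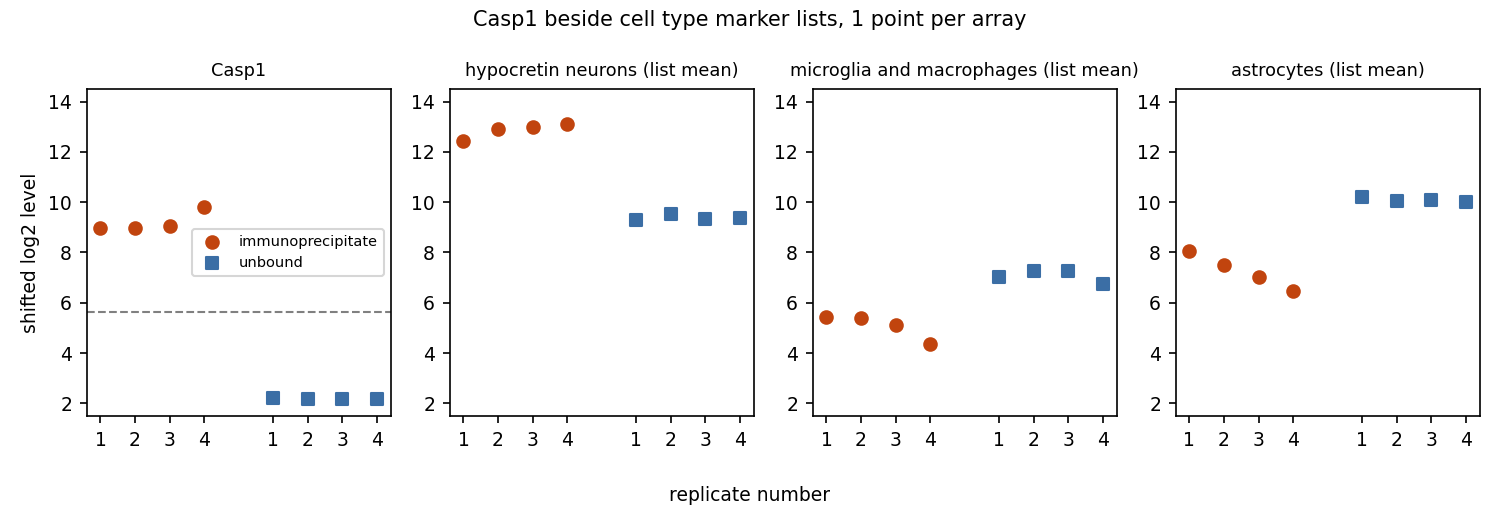
Log2 level of Casp1 and mean log2 level of 3 marker lists on each of the 4 immunoprecipitate arrays (circles) and 4 unbound arrays (squares), by replicate number, with the linear value 50 dashed for Casp1. Immunoprecipitate replicate 4 is highest for Casp1 (9.80) and for the hypocretin list (13.12), and lowest for the microglial (4.36) and astrocyte (6.46) lists.

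The chromosome 9 neighbours of Casp1 gave no signal. Casp4 (1449591_at) stood at 2.20 on every immunoprecipitate array and at 2.15 on every unbound array, which is the lowest value each group holds. Casp12 probe set 1418981_at stood at the same lowest values on all 8 arrays. Its second probe set, 1449297_at, stood at 2.27, 2.29, 2.27 and 2.27 in the immunoprecipitate, against 2.21, 2.70, 2.21 and 2.27 in the unbound fraction. All of these lie far under 50, so no fold is given for Casp4 or Casp12, and a probe set at the lowest value shows only that it gave no signal here. Both genes were under 50 on all 8 arrays, as were 38.4% of all genes with a symbol.

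Measured genes on either side of the group did not share the Casp1 pattern. On one side, Gria4, an AMPA-type glutamate receptor subunit, stood at 8.76 ± 0.26 on immunoprecipitate arrays and 9.71 ± 0.18 on unbound arrays (SD, n = 4 each). Its log2 difference was -0.95 and did not reach 2-fold. Msantd4, the next measured gene on that side, gave -0.46, or 0.35 after median centring, and did not reach 2-fold either. On the poly-A controls both were called lower, at -2.70 for Gria4 and -2.21 for Msantd4. On the other side, the growth factor gene Pdgfd was at least 1.73-fold lower in the immunoprecipitate, though not called after quantile normalization. Pdgfd reached 50 on 1 of 4 immunoprecipitate and all 4 unbound arrays, which favours a lower call, so its p-value is not given. Ddi1 was under 50 on all 8 arrays.

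**Figure D3:**
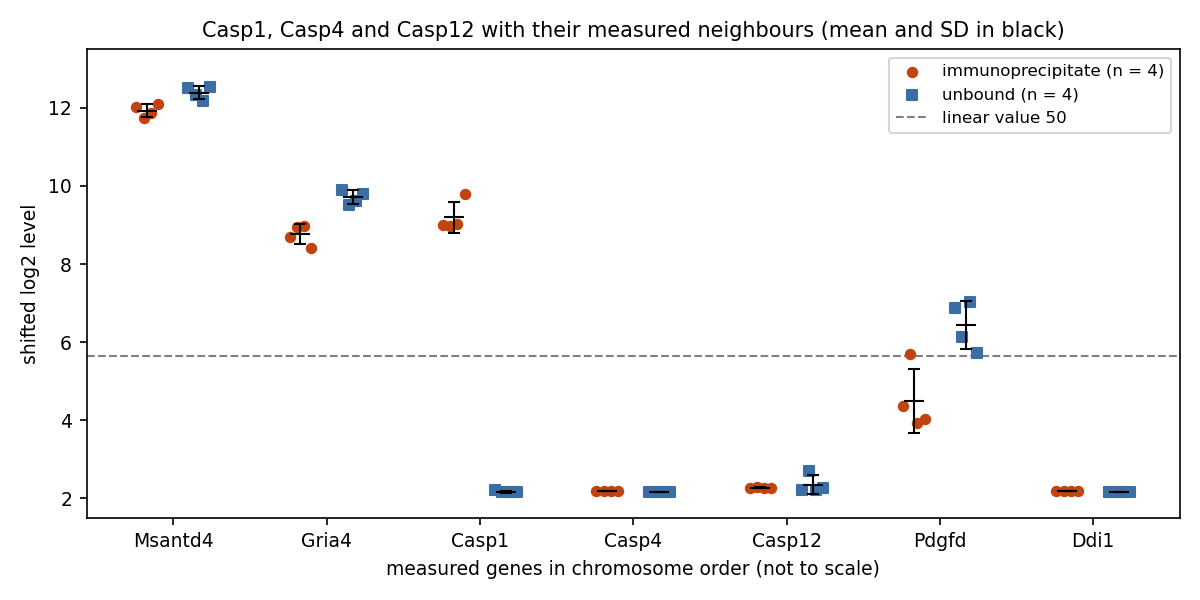
Shifted log2 level of the 3 inflammatory caspase genes and the nearest 2 measured genes on either side, in chromosome order and not to scale, on immunoprecipitate (circles) and unbound (squares) arrays, with mean and SD in black. Casp1 is the 1 gene of the 7 that lies above the linear value 50 (dashed) in the immunoprecipitate and under it in the unbound fraction.

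The initiators Casp2 and Casp9 showed the opposite direction, with a clear signal in the unbound fraction and a low one in the immunoprecipitate. Casp2 (1448165_at) had log2 levels of 6.69, 4.85, 5.76 and 6.29 in the immunoprecipitate, against 8.83, 8.0, 8.12 and 9.31 in the unbound fraction. The 2 groups did not overlap, and 3 of 4 immunoprecipitate arrays reached 50. The mean was 5.90 ± 0.79 on immunoprecipitate arrays and 8.56 ± 0.62 on unbound arrays (SD, n = 4 each), a log2 difference of -2.67 ± 0.44 (SE). With values under 50 raised to 50, Casp2 was at least 5.54-fold lower, and within each of the 4 preparations it was lower in the immunoprecipitate, by log2 differences of -2.14, -3.15, -2.36 and -3.02.

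Casp9 has 3 probe sets, and 1 of them gave a signal. On 1437537_at the log2 levels were 6.63, 5.72, 5.39 and 5.83 in the immunoprecipitate, against 9.21, 8.46, 8.56 and 9.21 in the unbound fraction. The groups did not overlap, and 3 of 4 immunoprecipitate arrays reached 50. The mean was 5.89 ± 0.52 on immunoprecipitate arrays and 8.86 ± 0.41 on unbound arrays (SD, n = 4 each), a log2 difference of -2.97 ± 0.33 (SE). Casp9 was at least 7.51-fold lower on this probe set, and lower within each of the 4 preparations, by -2.59, -2.74, -3.17 and -3.38. The other two Casp9 probe sets, 1426125_a_at and 1457816_at, were flat at 2.41 and 2.20 in the immunoprecipitate, against 2.36 and 2.15 in the unbound fraction, so the value of Casp9 rests on 1 probe set.

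Casp2 and Casp9 varied alike among the unbound arrays, both higher on replicates 1 and 4 than on replicates 2 and 3. The poly-A control RNAs, which are spiked in before amplification, ran the other way on those arrays. Their mean log2 level was 7.32, 8.35, 9.61 and 6.61 on unbound replicates 1 to 4, lower on replicates 1 and 4. On immunoprecipitate replicates 1 to 4 it was 10.22, 10.18, 9.43 and 9.17, lowest where Casp1 was highest. The part of this spike-in level in the caspase values was not tested.

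The genes of caspase-8 and caspase-6, the death receptor initiator and the executioner, lay near or under the chosen minimum of 50. Casp8 (1424552_at) had log2 levels of 3.10, 3.22, 3.25 and 3.21 in the immunoprecipitate, against 5.08, 5.01, 4.64 and 4.25 in the unbound fraction. All 8 values are under 50, so no fold is given, although the groups did not overlap. Casp6 (1415995_at) had 3.36, 3.50, 3.36 and 3.36 in the immunoprecipitate, against 5.22, 5.92, 4.47 and 5.58 in the unbound fraction. Unbound replicate 2 alone reached 50, and with values under 50 raised to it the bound on the fold was 1.06. The second Casp6 probe set, 1458715_at, stood at the lowest value of its group on all 8 arrays.

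By the rule used for all genes, a limma adjusted p under 0.05 and at least 2-fold, 1 of the 3 caspases with enough signal was called higher and 2 lower. Over all 10398 genes with enough signal, 4.74% were called higher and 44.2% lower, and the groups did not overlap for 57.1%, as they did not for these 3. Over all 17865 such probe sets the shares were 4.88% higher, 45.1% lower and 56.9% with no overlap. The family was picked through this contrast, so nothing is read from the count. The split of calls over all probe sets depended on the scaling, with 9.76% of calls higher here, 42.7% after median centring, 45.4% after quantile normalization and 0.835% on the poly-A controls. These scalings moved the median of all tested probe sets by 0.81, 0.84 and -1.75 on the log2 scale. The median difference of all tested genes was -0.85, and 8.77% of them had a lower difference than Casp2 and 5.88% a lower one than Casp9. When genes were ranked by genomic length into 5 equal groups, Casp1 and Casp2 were in group 2 from the shortest, with a median difference of -0.52, and Casp9 in group 3, with -0.81. Casp14, the other member of the family with probe sets of its own here, is known from skin, and its 2 probe sets were under 50 on all 8 arrays.

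The genes nearest to Casp1 in pattern were other genes with signal in the immunoprecipitate and none in the unbound fraction. Likeness was the distance between log2 levels over the 8 arrays, which rests mostly on the difference between the groups. Nearest was the small heat shock protein gene Hspb3, at a distance of 1.28, with 8.71 to 9.15 in the immunoprecipitate, against 2.48 in the unbound fraction. The TNF receptor relative Cd40 followed at 2.12, Pi16 at 2.18 and the ubiquitin ligase gene Rnf183 at 2.59. The homeobox factor Hmx2 (3.12), the vasopressin receptor Avpr1a and the growth factor Bmp5 (3.21 each) and the AP-1 factor Fosl1 (3.26) completed the 8. All 8 were under 50 on every unbound array and at or above it on every immunoprecipitate array.

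**Figure D4:**
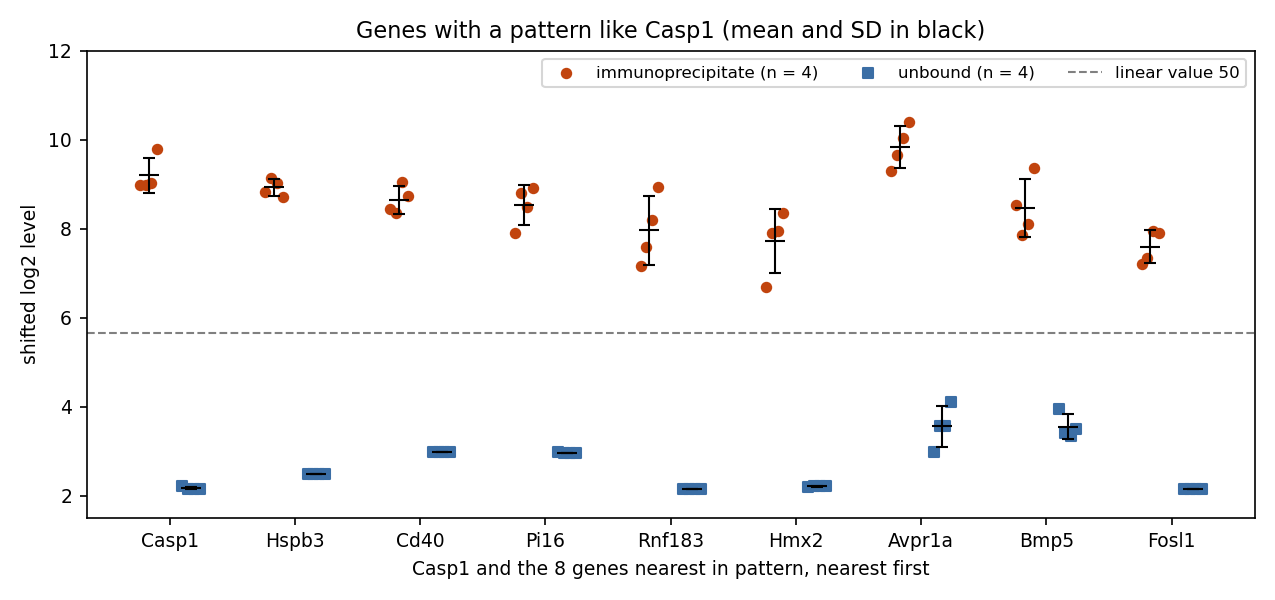
Shifted log2 level of Casp1 and the 8 genes nearest to it by distance over the 8 arrays, on immunoprecipitate (circles) and unbound (squares) arrays, with mean and SD in black and the linear value 50 dashed. All 9 genes lie above 50 on each immunoprecipitate array and under it on each unbound array.

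Among genes that act with caspases, more were called lower than higher in the immunoprecipitate, as over all genes. Of 78 measured genes in 5 lists, 46 had enough signal, and 2 of these rose and 27 fell by limma, where median centring gave 3 and 15, quantile normalization 3 and 12 and the poly-A controls 0 and 44. Their median log2 difference was -1.27. Over all tested genes 4.74% were called higher and 44.2% lower, with a median of -0.85, and the counts of each list stand beside these.

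The inflammasome and pyroptosis list held both genes that rose. Panx1, a membrane channel that releases ATP, had log2 levels of 9.62, 10.46, 10.63 and 11.29 in the immunoprecipitate, against 8.0, 7.93, 7.59 and 8.80 in the unbound fraction. It was 5.35-fold higher with no overlap between the groups (log2 difference 2.42 ± 0.38 SE, limma adjusted p = 0.00034). Nek7, a kinase that binds the inflammasome sensor Nlrp3 and was singled out after its value was seen, was 2.93-fold higher (limma adjusted p = 9.8e-05). On the poly-A controls neither was called, at 0.67 for Panx1 and -0.20 for Nek7.

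Other parts of the inflammasome were low. Pycard, the gene of the adaptor ASC that joins sensors to caspase-1, was singled out after its value was seen. It had 4.36, 4.97, 4.97 and 4.70 in the immunoprecipitate, against 5.99, 7.86, 6.79 and 6.73 in the unbound fraction. It was thus under 50 on all 4 immunoprecipitate arrays, while all 4 unbound arrays exceeded 50. Pycard was at least 2.31-fold lower, though not called after quantile normalization. It had enough signal for the test through the unbound arrays alone, so its p-value is not given. The sensor genes Nlrp3, Aim2 and Mefv, the pore gene Gsdmd and the cytokine genes Il1a and Il1b were under 50 on all 8 arrays. They were looked up after their values were seen. In all, 12 of the 21 measured genes of the inflammasome and pyroptosis list were under 50 on all 8 arrays, beside 38.4% of all genes.

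Of 21 measured genes of this list 8 were tested, of which 2 rose and 5 fell, beside 4.74% and 44.2% of all tested genes (median -1.76, beside -0.85). Median centring gave 2 higher and 4 lower, quantile normalization 2 and 3, and the poly-A controls 0 and 6. The alarmin gene Il33 was 9.15-fold lower (limma adjusted p = 0.00041), and Gsdme, a gasdermin that caspases cut, was 6.48-fold lower (limma adjusted p = 1.7e-05). Txnip, which links oxidative stress to Nlrp3, was at least 6.07-fold lower. Txnip reached 50 on 1 of 4 immunoprecipitate and all 4 unbound arrays, which favours a lower call, so its p-value is not given. Il18, whose precursor caspase-1 cuts, was singled out after its value was seen. It fell 2.71-fold (limma adjusted p = 0.010), and it was called neither after median centring nor after quantile normalization.

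**Figure D5:**
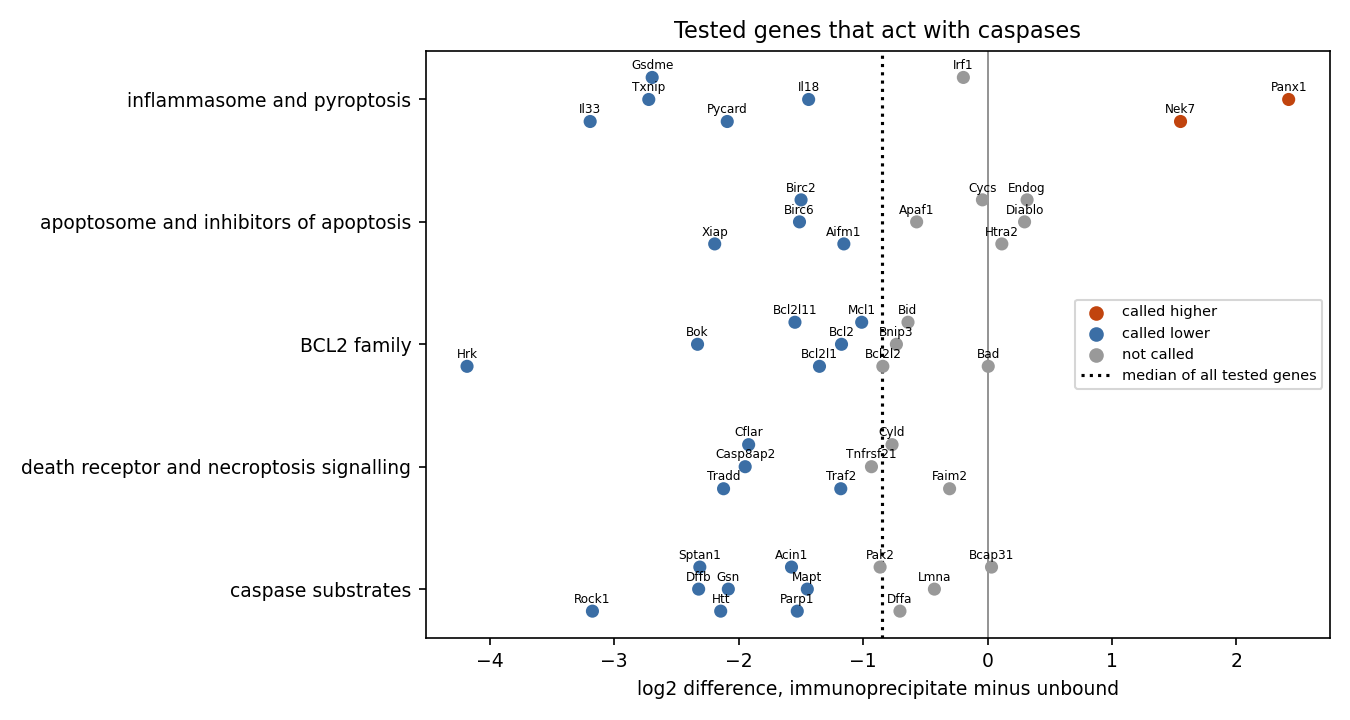
Log2 difference, immunoprecipitate minus unbound, of the tested genes of 5 lists that act with caspases, coloured by the limma call, with the median of all tested genes (-0.85) dotted. Panx1 and Nek7 are the 2 genes called higher, and Hrk has the lowest difference at -4.18.

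The list of the apoptosome, where caspase-9 is activated, and the inhibitors of apoptosis had 9 tested genes of 13 measured. None rose, also at an unadjusted limma p under 0.05, and 4 fell, beside 44.2% of all tested genes (median -0.57, which turned to 0.24 after median centring). The 4 were Xiap, Birc2, Birc6 and Aifm1, none of them a part of the apoptosome itself. Median centring and quantile normalization each gave 1 higher and 1 lower, and all 9 were lower on the poly-A controls. The caspase inhibitor Xiap fell 4.57-fold (limma adjusted p = 6.4e-05), with levels of 9.30 to 10.39 in the immunoprecipitate, against 11.72 to 12.18 in the unbound fraction. The ubiquitin ligase genes Birc2 and Birc6 fell 2.83- and 2.85-fold, and Aifm1, a mitochondrial oxidoreductase, fell 2.23-fold. None of these 3 was called after median centring or quantile normalization. Apaf1, the scaffold of the apoptosome, and Cycs, the cytochrome c that triggers it, were looked up after their values were seen. They gave -0.57 and -0.04 (limma adjusted p = 0.14 and 0.81).

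The BCL2 family controls the mitochondrial step ahead of caspase-9. Of 15 measured members 10 were tested, none rose, also at an unadjusted limma p under 0.05, and 6 fell, beside 44.2% of all tested genes (median -1.09, beside -0.85), with 2 called lower after median centring, 2 after quantile normalization and 10 on the poly-A controls. Hrk, a neuronal member that promotes death, had 2.51 to 3.61 in the immunoprecipitate, against 6.09 to 8.26 in the unbound fraction. Hrk was at least 3.03-fold lower, with enough signal for the test through the unbound arrays alone, so its p-value is not given. The pore-forming relative Bok fell 5.03-fold (limma adjusted p = 0.00012). Bcl2l11, another promoter of death, was at least 2.58-fold lower and the protective Bcl2l1 fell 2.55-fold. Those last 2 were not called after median centring or quantile normalization.

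Death receptor and necroptosis genes act around caspase-8. Of 16 measured 7 were tested, none rose, also at an unadjusted limma p under 0.05, and 4 fell, beside 44.2% of all tested genes (median -1.18, beside -0.85), with 3 called lower after median centring, 0 after quantile normalization, where 0 rose too, and 7 on the poly-A controls. Tradd, an adaptor of TNF receptor 1, fell 4.35-fold (limma adjusted p = 0.00025). Casp8ap2, a nuclear protein named for binding caspase-8, fell 3.86-fold (limma adjusted p = 0.0029). Cflar, which encodes the caspase-8 inhibitor c-FLIP and lies beside Casp8 on chromosome 1, was at least 3.04-fold lower. Traf2, a signalling adaptor of TNF receptors, was at least 1.88-fold lower with overlapping groups, and its log2 difference turned to 0.13 after quantile normalization. Cflar and Traf2 each reached 50 on 2 of 4 immunoprecipitate and all 4 unbound arrays. This favours a lower call, so no p-value is given for them. The receptor genes Fas and Tnfrsf10b, the adaptor Fadd, the kinase gene Ripk3 and the necroptosis effector Mlkl, looked up after their values were seen, were under 50 on all 8 arrays. In all, 8 of the 16 measured genes of this list were under 50 on all 8 arrays, beside 38.4% of all genes.

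The list of known caspase substrates also holds the nuclease gene Dffb, which is not itself counted on as a substrate here. Of 13 measured genes of this list 12 were tested, and none rose, also at an unadjusted limma p under 0.05. In all 8 fell, beside 44.2% of all tested genes (median -1.55, beside -0.85). After median centring 5 were called lower, after quantile normalization 6 and on the poly-A controls 12. The kinase Rock1 fell 9.03-fold (limma adjusted p = 0.00013). Dffb, the nuclease that cuts DNA in apoptosis, was at least 3.25-fold lower. It had enough signal for the test through the unbound arrays alone, so its p-value is not given. The cytoskeletal spectrin Sptan1 and huntingtin, Htt, fell 4.97- and 4.42-fold (limma adjusted p = 0.00029 and 2.7e-05).

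Of 16 measured neighbours of the 4 caspases outside chromosome 9, 9 were tested, of which 1 was called higher, 7 lower and 1 was not called, beside 4.74% higher and 44.2% lower among all tested genes. Pla2g12a, a secreted phospholipase gene next to Casp6, was at least 2.96-fold higher, but was not called on the poly-A controls, at 0.54. Pla2g12a reached 50 on all 4 immunoprecipitate arrays and 1 of 4 unbound arrays, which favours a higher call, so its p-value is not given. Gstk1, a glutathione transferase gene 2 measured genes before Casp2, was at least 4.90-fold lower. It had enough signal for the test through the unbound arrays alone, so its p-value is not given. Fam131b beside Casp2 fell 3.65-fold, Sec24b and Col25a1 beside Casp6 fell 2.23- and 5.22-fold, and Trak2 beside Casp8 fell 3.43-fold (limma adjusted p = 0.0035, 0.0045, 0.00023 and 7.4e-05). After median centring Fam131b, Sec24b and Trak2 were not called, and after quantile normalization Fam131b and Sec24b were not. Cflar was also among the genes called lower, and Stradb, near Casp8, gave -0.57, or 0.24 after median centring, and was called lower on the poly-A controls alone. Next to Casp9, Dnajc16 fell 2.07-fold with overlapping groups (limma adjusted p = 0.019), though it was called neither after median centring nor after quantile normalization, and the pancreatic enzyme gene Cela2a was under 50 on all 8 arrays.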

How the data were processed

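The authors deposited 1 log2 value per probe set and array, made with GCRMA per the submitters' processing notes, which name no version. Each group's 4 arrays were normalized together, per the design text. Here both groups were shifted to equal means of 18 hybridisation controls, which differed by 0.02 as deposited, and the 64 control probe sets were then dropped. limma 3.58.1 (lmFit, eBayes with trend, no block) in R 4.3.3 was run on the 17865 probe sets that reached a linear 50 on 4 or more arrays, with Benjamini-Hochberg adjustment over all of them. Calls needed an adjusted p under 0.05 and at least 2-fold. A gene short of 50 in 1 group can pass the filter through the other group alone, which favours the direction called. Each gene stands for its brightest probe set. Where some arrays of a group were under 50, values were raised to 50 and the fold is given as at least.

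The platform annotation gave 1 symbol for 34945 probe sets and several for 932, and did not list 9160. The members, lists, tests and naming rule were chosen with earlier results of these data known. The rule names all caspases, the 8 genes nearest to Casp1, up to 2 measured neighbours on either side of each member, and up to 4 called genes per list with the largest change. Promoters of 7 of 7 members were found in the RefSeq table.

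The labels join same-numbered fractions to 1 preparation, and across genes the deviations of such pairs correlated at 0.46, 0.32, 0.28 and 0.58. The highest correlation with an unbound array of another number was -0.05, 0.26, 0.25 and -0.11. For replicates 2 and 3 the labelled pair thus stood only slightly above a mismatched one. On simulated data with 17865 probe sets, the recovered share was 60.0%, 64.0% and 96.0% for log2 rises of 1.5, 2 and 3. For a log2 fall of 2 it was 80%, and there were 5 false calls among 17665. The simulation changed few probe sets and held no shift between the groups, so these false calls do not measure the error in the data. The 3' minus 5' log2 signal of Actb ran from 3.14 to 4.11 in the immunoprecipitate and from 3.01 to 3.80 in the unbound fraction (exact permutation test, two-sided, p = 0.314 unpaired and 0.375 paired). For Gapdh it ran from 2.12 to 4.50 in the immunoprecipitate and from 1.94 to 3.36 in the unbound fraction (exact permutation p = 0.457 unpaired and 0.125 paired). The smallest p that 4 pairs allow is 0.125. Python 3.11.15 with matplotlib 3.10.9 made the plots.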

Additional observations from a re-analysis of the deposited data

Results flagged for a closer look

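In 4 of 107 groups of 4 arrays of named genes, 1 array stood apart from the other three by a gap that, as a share of the group's whole range, exceeded Dixon's 95% critical value, where chance gives about 5%. Casp1 stood at 9.80 on immunoprecipitate replicate 4, against 9.03 on the next highest array. Bok stood at 7.92 on the same array, the next lowest being 8.83, and Bcl2l11 at 4.91 there, the next lowest being 6.76. Traf2 stood at 5.94 on unbound replicate 1, the next lowest being 6.89.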

How the results depend on the processing

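The fitted log2 difference of Casp1 was 7.03, a value set by the floor of the unbound arrays. It was 7.84 after median centring, 7.40 after quantile normalization and 5.28 on the poly-A controls, and 6.83 to 7.10 without 1 array. With no filter on low values 4 caspases in place of 2 were called lower, Casp6 and Casp8 being added. Over all 45037 probe sets that setting called 11199 lower, against 8059 of 17865 with the filter. Casp8 was under 50 on all 8 arrays, and nothing is read from this count. Median centring, quantile normalization and the poly-A controls gave 3150, 3091 and 138 probe sets called higher in place of 872. In the same order they called 4228, 3715 and 16395 lower in place of 8059. Of the pathway genes they called 15, 12 and 44 lower in place of 27, and on the poly-A controls 0 rose in place of 2. Casp2 gave -1.86, -1.54 and -4.42 and Casp9 -2.16, -1.86 and -4.72. A 4-fold threshold gave 257 higher and 3714 lower, with 1 pathway gene higher and 13 lower. No fold threshold gave 1489 higher, and no filter 1402. Without 1 array the counts ran from 775 to 1064 higher and from 7840 to 8163 lower, and from 25 to 27 pathway genes lower. With the replicate block 931 were higher and 8192 lower, and 0 of 102 tested genes named or listed here changed call. The mean of probe sets was run for genes and not for the probe set counts.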
